A study of Homo sapiens with 6 samples.

Results

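The 10 genes described here encode syndecans and other heparan sulfate proteoglycans, together with enzymes that build their sugar chains. They are SDC1, SDC2, SDC3 and SDC4, GPC1, HSPG2, AGRN, EXT1, EXT2 and NDST1, out of 18768 genes with counts in the series. They were selected around the difference of SDC1 between the groups in these same libraries, so their values are given as a description and carry no p-value. All rows of the transcript count table that belong to a member were taken, which gave 61 of the 76 transcripts that GENCODE release 29 annotates for these genes, and the rows were summed per gene. All 10 gene sums passed the filter on low counts, as did 13764 genes in all. Besides SDC1 (located below), the annotation places SDC3 at chr1:30869467-30908761, HSPG2 at chr1:21822245-21937297 and AGRN at chr1:1020123-1056118, GPC1 at chr2:240435671-240468078, NDST1 at chr5:150485818-150558211, EXT2 at chr11:44095549-44245429 and SDC4 at chr20:45325288-45348424 (GRCh38), and SDC2 and EXT1 on chromosome 8.

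The libraries come from HCT116, an established human colorectal cancer cell line, transfected with a negative control siRNA (siRNA-NC) or with 1 siRNA against the long non-coding RNA AC010789.1 (si-AC010789.1). Each group holds 3 libraries of total RNA from this single line, and the study compared the groups to find transcripts that respond to loss of AC010789.1. The study speaks of biological repeats and reports substantial differences within the group. It says that these may come from the differing cell generations of the repeats. The labels give neither the culture nor the generation of a library and name no batch. Any p-value below therefore measures the spread between these libraries. The study reports a check of the knockdown in its RNA-seq samples. The level of AC010789.1 itself was not analysed here, so the labels were not checked against it.

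Heparan sulfate proteoglycans are proteins that carry long, sulfated sugar chains and bind growth factors, Wnt ligands, chemokines and matrix proteins. Syndecans span the membrane, glypicans are held to it by a lipid anchor, and perlecan and agrin are secreted into basement membranes. The chains are started on a short sugar linker, extended by the EXT1 and EXT2 polymerase, and then trimmed and sulfated, with NDST enzymes acting first; syndecan-1 is the main syndecan of simple epithelia such as the intestinal lining.

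The total count per library was 11277222 to 13443866, and 3 counts corresponded to 0.223 to 0.266 CPM (counts per 1000000 counts of a library, scaled by edgeR's TMM factors). Of 10 colorectal epithelial markers, 6 had rows: KRT8 stood at 444 to 850 CPM and KRT18 at 351 to 535 CPM, whereas EPCAM stood at 3.10 to 5.59 CPM, CDH1 at 0.675 to 1.05 CPM, and CDH17 and LGALS4 at no more than 3 counts in any library. These low levels of intestinal epithelial markers go against the label, and the identity of the line was not tested here. The study reports E-cadherin, which CDH1 encodes, in its HCT116 cells by western blot, qRT-PCR and immunofluorescence. Why CDH1 counts were low in these libraries was not tested. KRT19, CDX2, VIL1 and CEACAM5 were not analysed here. The summed epithelial markers were 986 to 1229 CPM in siRNA-NC and 802 to 1042 CPM in si-AC010789.1. The summed fibroblast markers (4 of 6 with rows, with COL1A1 at 37.8 to 48.0 CPM) were 59.65 to 69.25 and 63.85 to 68.62 CPM, the endothelial ones (3 of 5) 3.00 to 3.72 and 1.66 to 4.21 CPM, and the leukocyte ones (2 of 5) 0.754 to 1.575 and 1.135 to 1.60 CPM. The part of these markers in the results below was not tested.

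SDC1, the gene of syndecan-1, lies on the minus strand of chromosome 2 (chr2:20200797-20225433, GRCh38). Its counts came mostly from 2 protein-coding transcripts that start 321 bases apart, ENST00000381150 at position 20225433 and ENST00000254351 at position 20225112. RefSeq (GRCh38.p14) lists starts 42 and 18 bases from these, and its promoter table held 10 entries for 7 of the 10 genes, none of them for SDC2, AGRN or EXT1. The bases before both SDC1 starts are shown because the counts of these transcripts differed between libraries, and those before the start of SDC4, the other abundant syndecan, are shown for comparison. Capitals mark the letters TATAA or GGGCGG on either strand. Each run ends at the base before the RefSeq start, and the run for the downstream SDC1 start, 131 bases long, stops at the first exon of the other transcript.
SDC1, upstream start, chr2:20225476-20225725, minus strand: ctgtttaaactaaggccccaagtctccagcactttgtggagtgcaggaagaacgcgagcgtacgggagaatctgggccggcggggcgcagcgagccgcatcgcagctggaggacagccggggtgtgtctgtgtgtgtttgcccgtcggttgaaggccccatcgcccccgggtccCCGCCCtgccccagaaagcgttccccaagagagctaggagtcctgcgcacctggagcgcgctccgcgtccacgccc
SDC1, downstream start, chr2:20225131-20225261, minus strand: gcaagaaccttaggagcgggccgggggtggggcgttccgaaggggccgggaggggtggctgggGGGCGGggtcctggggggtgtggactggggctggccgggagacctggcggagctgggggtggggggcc
SDC4, chr20:45348425-45348674, minus strand: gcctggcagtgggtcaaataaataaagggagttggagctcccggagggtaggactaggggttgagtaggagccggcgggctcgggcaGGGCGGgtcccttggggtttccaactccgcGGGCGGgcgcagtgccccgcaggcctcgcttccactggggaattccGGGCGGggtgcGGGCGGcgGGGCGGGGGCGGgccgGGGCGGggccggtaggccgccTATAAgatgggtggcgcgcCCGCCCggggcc
In windows of 250 bases before to 50 after the start, GGGCGG was found once before each SDC1 start, at -76 and -68, and 8 times at SDC4. TATAA was found at -31 in the SDC4 window, at 38 and 39 past the downstream SDC1 start, as overlapping matches on opposite strands, and nowhere in the upstream SDC1 window. Of the 35116 RefSeq promoter windows of this length, 20.4% hold TATAA and 45.0% hold GGGCGG on either strand.

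Among the syndecans, the gene sum of SDC1 was far higher in every si-AC010789.1 library than in any siRNA-NC library, while the sums of the other syndecan genes lay close together or overlapped. SDC1 stood at 51.0, 56.1 and 54.6 CPM in siRNA-NC replicates 1, 2 and 3 and at 152, 112 and 152 CPM in si-AC010789.1 replicates 1, 2 and 3. The siRNA-NC libraries were close to each other, and si-AC010789.1 replicate 2 was the lowest of its group. The means were 53.9 ± 2.59 and 139 ± 23.5 CPM (SD, n = 3 each), a ratio of 2.57, and edgeR put the difference at 1.36 on the log2 scale (standard error 0.13). With any 1 library left out it ranged from 1.29 to 1.5004, the highest value being without si-AC010789.1 replicate 2. In RNA from whole cultures, more cells with the transcript and more transcript per cell cannot be told apart.

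The rest of the syndecan family is given on the same scale. SDC2, a syndecan best known from mesenchymal cells, was the lowest, at 8.06, 7.01 and 6.83 CPM in siRNA-NC and 3.76, 5.35 and 8.18 CPM in si-AC010789.1. The groups overlapped, and the log2 fold change of -0.34 had a standard error of 0.28. Its counts, 91 to 93 per library in siRNA-NC and 43 to 101 in si-AC010789.1, are the smallest among the members, and leaving out single libraries moved the estimate between -0.68 and -0.11. SDC3, first described in the nervous system, stood at 45.8, 52.9 and 52.1 CPM in siRNA-NC and at 51.7, 49.2 and 48.4 CPM in si-AC010789.1. Its groups overlapped, with a fitted log2 fold change of -0.015 and a standard error of 0.079. SDC4, a broadly expressed syndecan of focal adhesions, stood at 85.9, 97.9 and 92.1 CPM and at 86.9, 89.7 and 86.8 CPM in the same order. These groups overlapped as well, with means of 92.0 ± 6.03 and 87.8 ± 1.65 CPM (SD, n = 3 each) and a fitted log2 fold change of -0.067, standard error 0.064.

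**Figure D1:**
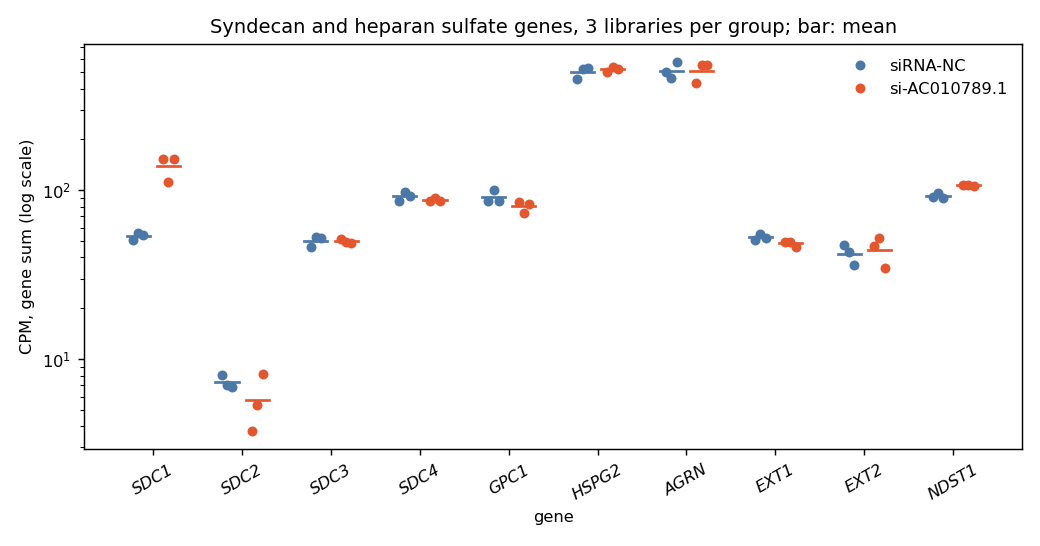
CPM of each gene sum (log axis) for the 10 genes, with 1 point per library (3 siRNA-NC, 3 si-AC010789.1) and a bar at each group's mean. The groups of SDC1 are far apart, at 51.0 to 56.1 and 112 to 152 CPM, those of GPC1, EXT1 and NDST1 are separate by smaller margins, and those of the other 6 genes overlap.

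GPC1 encodes glypican-1, the lipid-anchored heparan sulfate proteoglycan among the members. It stood at 86.6, 100.1 and 86.2 CPM in siRNA-NC and at 85.3, 73.3 and 82.8 CPM in si-AC010789.1. The groups did not overlap, but the lowest siRNA-NC and the highest si-AC010789.1 library were less than 1 CPM apart. The fitted log2 fold change of GPC1 was -0.18, with a standard error of 0.090. GPC1 holds the microRNA gene MIR149 on its strand and overlaps AC110619.1 on the other strand, and whether counting used the strand is not given in the sources used here.

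The secreted core proteins had the highest sums and did not differ in mean by more than their spread. HSPG2, which encodes perlecan, stood at 456, 520.5 and 532 CPM in siRNA-NC and at 503, 539.6 and 523 CPM in si-AC010789.1. AGRN, which encodes agrin, stood at 498, 459 and 571 CPM and at 430.0, 549 and 549 CPM. Both genes overlapped between the groups. Their fitted log2 fold changes were 0.054 (standard error 0.068) for HSPG2 and 0.00018 (standard error 0.12) for AGRN. HSPG2 overlaps LDLRAD2 on the other strand, and AGRN holds AL645608.5 in an intron on its own strand.

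EXT1 and EXT2 encode the subunits of the polymerase that extends the chain. EXT1 stood at 51.0, 55.3 and 52.3 CPM in siRNA-NC and at 49.5, 49.7 and 46.0 CPM in si-AC010789.1. Every si-AC010789.1 library was below every siRNA-NC library, by -0.13 on the log2 scale, with a standard error of 0.069. EXT2 stood at 47.3, 43.2 and 35.9 CPM in siRNA-NC and at 47.1, 52.0 and 34.7 CPM in si-AC010789.1. The siRNA-NC values lay inside the si-AC010789.1 range, with an estimate of 0.081 on the log2 scale and a standard error of 0.17.

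NDST1 encodes the enzyme that removes acetyl groups from the growing chain and puts sulfate in their place. It stood at 91.6, 96.7 and 89.6 CPM in siRNA-NC and at 106.8, 107.0 and 106.6 CPM in si-AC010789.1. The si-AC010789.1 libraries were nearly equal to each other and above all siRNA-NC libraries, with means of 92.65 ± 3.68 and 107 ± 0.207 CPM (SD, n = 3 each). The fitted difference was 0.20 on the log2 scale, with a standard error of 0.051, and between 0.18 and 0.24 with any 1 library left out. NDST1 overlaps the non-coding gene NDST1-AS1 on the other strand.

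Set side by side, 5 of the 10 log2 fold changes were above 0 and 5 below. Their median was -0.0073, against -0.00059 over all 13764 genes tested, and 8 of the 10 were smaller than 0.3 in size. When edgeR's test was run over all genes and its p-values were adjusted by the Benjamini-Hochberg method, the threshold of 0.05 was passed by SDC1 alone among the members, in the direction of higher counts. Over all genes 0.944% passed, 0.269% higher and 0.676% lower in si-AC010789.1, and nothing is read from the members' count because SDC1 was selected on this difference. SDC1 no longer passed with the replicate number as a block or without si-AC010789.1 replicate 1 or 3 or any 1 of the siRNA-NC libraries. SDC1, GPC1, EXT1 and NDST1, 4 of 10, had groups that did not overlap, which held for 25.1% of all genes tested.

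**Figure D2:**
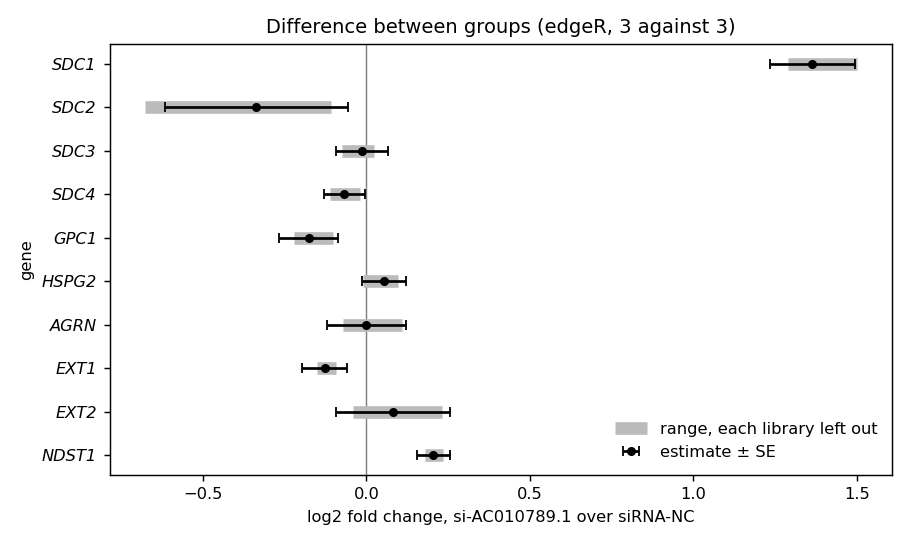
Log2 fold change of si-AC010789.1 over siRNA-NC for each gene sum, with the standard error of the edgeR fit (bars) and the range of estimates when each of the 6 libraries is left out (grey). SDC1 stands at 1.36, NDST1 at 0.20 and the other 8 genes between -0.34 and 0.081.

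The transcripts of SDC1 divided its counts very differently from library to library. For ENST00000254351 the counts were 440, 99 and 160 in siRNA-NC replicates 1, 2 and 3, and in si-AC010789.1 they were 1479, 1145 and 1639. For ENST00000381150 the siRNA-NC counts were 85, 515 and 549 and the si-AC010789.1 counts 218, 139 and 88. The first was the larger in siRNA-NC replicate 1 and in all si-AC010789.1 libraries, and the second in siRNA-NC replicates 2 and 3. The groups of the first transcript did not overlap, whereas those of the second did.

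These transcripts are nearly the same molecule. They share 3119 exonic bases and have identical coding intervals of 930 bases, with 28 bases present only in ENST00000254351 and 172 only in ENST00000381150. How reads that fit several transcripts were assigned is not given in the sources used here. The counts of the pair summed to 525, 614 and 709 over siRNA-NC libraries and to 1697, 1284 and 1727 over si-AC010789.1 libraries. Thus the sum of the pair was higher in every si-AC010789.1 library, whichever of them the shared reads were given to. Another protein-coding transcript, ENST00000429035, with an annotated length of 646 bases, had 90 counts in siRNA-NC replicate 2, 78 and 117 in si-AC010789.1 replicates 2 and 3, and 0 in the other libraries.

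**Figure D3:**
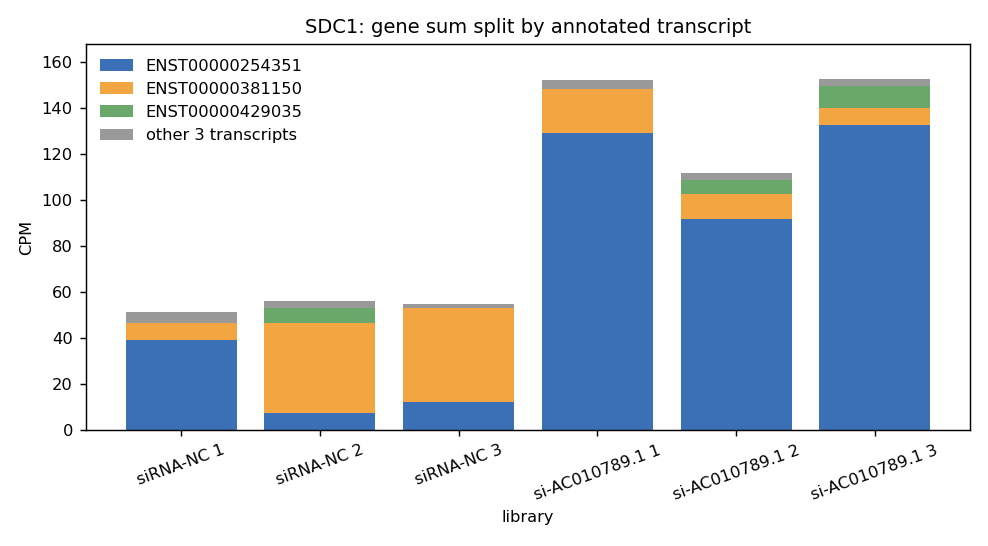
CPM of the SDC1 gene sum in each of the 6 libraries, stacked by annotated transcript. The ENST00000381150 segment is the largest in siRNA-NC replicates 2 and 3, and the ENST00000254351 segment in the other libraries, where it reached 1479, 1145 and 1639 counts in si-AC010789.1.

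For each of the other 9 genes a single transcript held at least 78.1% of the counts over the 6 libraries, and no further transcript reached 10%. SDC4 had a single annotated transcript, ENST00000372733, and the main transcripts of GPC1, HSPG2 and EXT1 held 98.8%, 98.6% and 98.0% of their counts. In AGRN and EXT2, minor transcripts that were picked out after their values were seen were high in single libraries. The AGRN transcript ENST00000620552 had siRNA-NC counts of 28, 58 and 1149 and si-AC010789.1 counts of 67, 731 and 53, which is 1 high library in each group. An AGRN transcript with a retained intron, ENST00000461111, had 146, 148 and 611 counts and 48, 757 and 84 counts, and was high in those 2 libraries too. The EXT2 transcript ENST00000343631 had 73 counts in siRNA-NC replicate 2, 234 in si-AC010789.1 replicate 2 and 0 in the other libraries. The main EXT2 transcript, ENST00000533608, had siRNA-NC counts of 507, 458 and 429 and si-AC010789.1 counts of 470, 248 and 391, and was lowest where ENST00000343631 was highest. The EXT2 sum was highest in that library, at 52.0 CPM.

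Levels of different genes were compared per length as TPM, computed by dividing each transcript's counts by its annotated length, summing per gene and scaling each library to a total of 1000000. In siRNA-NC, AGRN was the highest of the 10 genes at 156 ± 15.1 TPM (SD, n = 3). On this scale HSPG2 (79.3 ± 6.13) and SDC4 (67.9 ± 4.46) followed, with ranges that overlapped each other, then GPC1 (49.2 ± 3.16) and SDC1 (44.7 ± 11.27), whose ranges also overlapped. EXT2 (30.7 ± 3.63), NDST1 (26.2 ± 1.11), SDC3 (19.6 ± 2.50), EXT1 (13.1 ± 0.299) and SDC2 (5.29 ± 0.562) came after them, each with a range apart from the next. Perlecan, with a much longer transcript, thus had nearly as high a count sum as agrin but about the per-length level of SDC4.

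In si-AC010789.1 the order of TPM from the top was AGRN (159 ± 28.7), SDC1 (106 ± 17.5), HSPG2 (82.5 ± 3.21), SDC4 (65.0 ± 1.44) and GPC1 (42.9 ± 4.02), with no overlap between neighbours. NDST1 (34.1 ± 2.20) and EXT2 (32.1 ± 5.66) overlapped, and SDC3 (18.3 ± 1.12), EXT1 (12.8 ± 0.784) and SDC2 (4.26 ± 0.159) were again the lowest. The small SD of SDC2 is not a measure of precision, since its CPM in this group had an SD of 2.24. Few counts on short transcripts weigh heavily per length. They include 5 on ENST00000520233 (563 bases) in replicate 1 and 8 on ENST00000522911 (677 bases) in replicate 2. SDC1 thus stood at rank 5 in siRNA-NC and at rank 2 in si-AC010789.1. When each gene sum was divided by its longest transcript instead, HSPG2 and SDC4 changed places in siRNA-NC and the order was otherwise the same.

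Within the syndecan family the per-length level of SDC1 relative to SDC4 was 0.666, 0.784 and 0.517 in the siRNA-NC libraries and 1.62, 1.36 and 1.95 in the si-AC010789.1 libraries. SDC4 was therefore the higher of the pair in every siRNA-NC library and SDC1 in every si-AC010789.1 library. SDC1 made up 32.2% ± 4.66 of the summed syndecan level of siRNA-NC and 54.6% ± 4.44 of that of si-AC010789.1 (SD, n = 3 each), and SDC4 49.6% ± 3.09 and 33.7% ± 3.32. SDC3 went from 14.2% ± 1.17 to 9.50% ± 1.05 and SDC2 from 3.91% ± 0.802 to 2.20% ± 0.144 in these shares. The SDC2 shares rest in part on the few counts on short transcripts given above. The summed syndecan level was 138 ± 16.3 and 194 ± 16.4 TPM, while without SDC1 the means summed to 92.8 and 87.6 TPM. These values follow from the SDC1 difference by which the genes were selected.

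**Figure D4:**
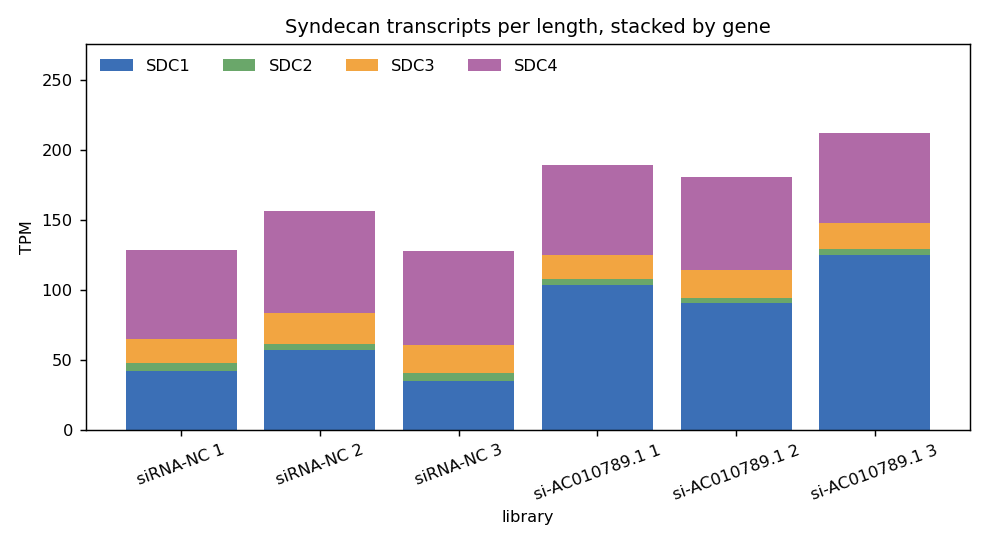
Level per length (TPM) of the 4 syndecan genes in each of the 6 libraries, stacked by gene. The SDC1 segment is larger than the SDC4 segment in the 3 si-AC010789.1 libraries and smaller in the 3 siRNA-NC libraries, and the SDC2, SDC3 and SDC4 segments have similar heights in both groups.

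The genes whose pattern over the 6 libraries was most like that of SDC1 were found from log2(CPM + 1) values centred on each gene's mean, as the smallest root mean square difference to SDC1. They were MPC2, a subunit of the mitochondrial pyruvate carrier (0.168), TMEM139, which encodes a transmembrane protein (0.216), DPM2, a subunit of dolichol phosphate mannose synthase (0.241), MT-TV, the mitochondrial tRNA for valine (0.249), and the antisense RNA gene SMIM2-AS1 (0.269), which had at most 30 counts in a library. MPC2 stood at 11.1, 16.1 and 10.4 CPM in siRNA-NC and at 37.3, 28.3 and 39.1 CPM in si-AC010789.1, with si-AC010789.1 replicate 2 again the lowest of its group. Among the members NDST1 came nearest to SDC1, at rank 1370 of 13763 genes. SDC2 was the farthest, at rank 12776.

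The other genes of heparan sulfate synthesis, modification, release and breakdown were taken as 10 lists of 82 genes, of which 73 had counts and 61 passed the filter. UXS1, which makes UDP-xylose, the donor of the first sugar of the linker, fell, and it was the 1 gene of the 61 past the threshold (edgeR, adjusted over all genes). None passed in the higher direction, and at an unadjusted p under 0.05 there were 15 of the 61, 6 of them with a higher estimate, beside 17.2% of all genes tested. Over all genes tested 0.944% passed the threshold on the adjusted p. Estimates were above 0 for 30 genes and below for 31, with a median of -0.0073, and 23 of the 61 had groups that did not overlap, beside 25.1% of all genes tested.

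UXS1 stood at 51.1, 40.8 and 45.8 CPM in siRNA-NC and at 23.1, 23.6 and 24.0 CPM in si-AC010789.1. The si-AC010789.1 libraries were close together and well below all siRNA-NC libraries. The means were 45.9 ± 5.17 and 23.6 ± 0.498 CPM (SD, n = 3 each). In edgeR this was a change of -0.96 on the log2 scale, with a standard error of 0.10 and an adjusted p of 0.0203. The main transcript, ENST00000409501, went from siRNA-NC counts of 308, 254 and 193 to si-AC010789.1 counts of 130, 111 and 101, and ENST00000283148 from 162, 223 and 344 to 88, 118 and 66. Both were lower in every si-AC010789.1 library. The minor transcripts ENST00000473338, with a retained intron, and ENST00000409032 ran the other way. The first had 23, 9 and 17 and then 24, 21 and 28 counts, and the second had 79 counts in si-AC010789.1 replicate 3 and at most 2 in the others. UXS1 overlaps the antisense gene AC018878.1, and without strand their reads cannot be told apart.

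The UXS1 call rested on having all libraries but siRNA-NC replicate 2: the adjusted p was 0.0671, 0.0767 and 0.0831 without si-AC010789.1 replicates 1, 2 and 3 and 0.0631 and 0.0694 without siRNA-NC replicates 1 and 3, against 0.0431 without siRNA-NC replicate 2 (edgeR). The estimate stayed between -1.04 and -0.87. With the replicate number as a block the adjusted p was 0.129 (edgeR), and over all alternatives it ranged from 7.445e-10 with DESeq2 to 0.129.

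**Figure D5:**
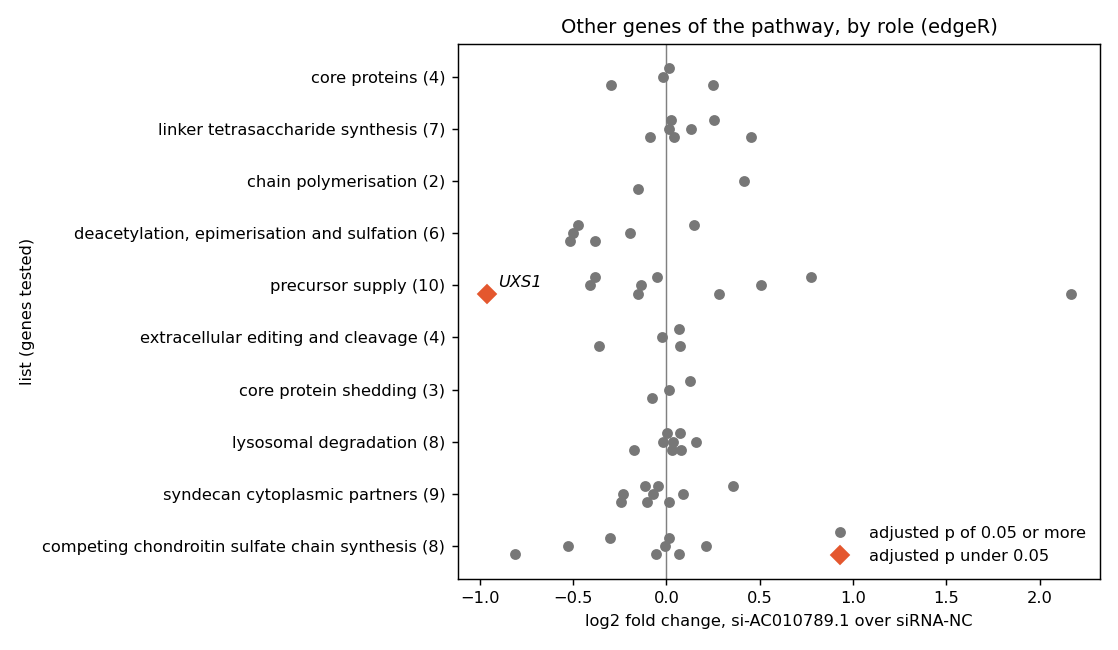
Log2 fold change of si-AC010789.1 over siRNA-NC for the 61 tested pathway genes that are not members, by list, with 1 point per gene and the number tested in brackets (vertical offsets only separate the points). UXS1, at -0.96, is the single gene with an adjusted p under 0.05, and the point at 2.17 is SLC35B3, with means of 0.352 and 1.66 CPM.

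The other genes named by rule, chosen for the highest mean CPM of each list, had adjusted p-values from 0.0864 (UGP2) to 0.977 (CHSY1) in edgeR, so none of them passed. Further core proteins were represented by TGFBR3, a TGF-beta co-receptor that can carry chains, at 111 ± 0.706 and 109 ± 2.53 CPM, and COL18A1, a basement membrane collagen, at 32.3 ± 4.42 and 32.6 ± 2.26 CPM (siRNA-NC, then si-AC010789.1, SD, n = 3 each). All 4 tested genes of that list had log2 fold changes between -0.30 and 0.25. Linker synthesis had 7 tested genes between -0.089 and 0.45. FAM20B, the kinase of the linker xylose, stood at 114 ± 4.86 and 115 ± 5.16 CPM, and B3GALT6, which adds a galactose to the linker, at 38.3 ± 2.46 and 36.0 ± 0.774 CPM. Of the EXT-like genes, EXTL3, which adds the first glucosamine of the chain, stood at 42.4 ± 6.31 and 56.5 ± 2.74 CPM without overlap (0.41, standard error 0.12), and EXTL2 at 36.4 ± 4.87 and 32.7 ± 2.20 CPM.

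The enzymes that modify the chain had lower estimates in 5 of 6 tested genes, with a median log2 fold change of -0.43, none of them past the threshold. Without si-AC010789.1 replicate 3 it was 4 of 6, with a median of -0.32. Over all genes tested, 6897 of 13764 estimates were lower. In other lists, estimates were higher for 6 of 7 linker genes and 6 of 8 lysosomal genes, and lower for 6 of 9 syndecan partner genes. The medians of these lists were 0.042, 0.033 and -0.071. Without si-AC010789.1 replicate 2, estimates were higher for 3 of 7 linker genes and 2 of 8 lysosomal genes, and lower for 6 of 9 partner genes. In that fit 5 of 6 modifying enzymes were lower, with a median of -0.30. The exception among the modifying enzymes, a list that leaves out the member NDST1, was HS2ST1, the 2-O-sulfotransferase. It stood at 81.5 ± 5.68 and 90.3 ± 1.89 CPM (0.15, standard error 0.067). HS6ST2, a 6-O-sulfotransferase, stood at 36.5 ± 11.5 and 25.8 ± 10.3 CPM with overlap (-0.50, standard error 0.34). With any 1 library left out, the HS6ST2 estimate lay between -0.87 and -0.30. GLCE, HS6ST1 and HS6ST3, picked out after their values were seen, were lower without overlap (-0.52, -0.20 and -0.47, standard errors 0.21, 0.080 and 0.13). With any 1 library left out they lay at -0.65 to -0.30, -0.23 to -0.15 and -0.57 to -0.42, in the same order. In this list 4 of the 6 had separate groups, HS2ST1 among them, beside 25.1% of all genes tested. NDST2, which acts at the same step as NDST1 and was picked out after its values were seen, had means of 16.7 and 12.8 CPM, overlapping groups and an estimate of -0.38, against 0.20 for NDST1. Its values were 19.1, 12.7 and 18.2 CPM in siRNA-NC and 16.8, 18.5 and 3.08 CPM in the si-AC010789.1 libraries, and without the last of these the estimate was 0.081. NDST2 overlaps the protein-coding gene AC022400.6 on its own strand, so strand alone cannot tell their reads apart. Precursor supply ranged from UXS1 at -0.96 to SLC35B3 at 2.17. SLC35B3, picked out after its values were seen, had counts of 0, 14 and 0 and of 0, 49 and 13, and its estimate lay anywhere from 0.55 to 7.36 with 1 library left out. UGP2, which makes UDP-glucose, stood at 129 to 143 CPM in siRNA-NC and below that, at 102 and 116 CPM in replicates 2 and 3 and 100.01 CPM in replicate 1, in si-AC010789.1. Its log2 fold change in edgeR was -0.38, with a standard error of 0.076 and an adjusted p of 0.0864. UGDH, which turns UDP-glucose into UDP-glucuronate, the substrate of UXS1, stood at 208 ± 22.8 and 190 ± 17.0 CPM with overlap.

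None of the genes that edit, release or degrade the proteoglycans passed the threshold, and the 4 tested editing genes had log2 fold changes between -0.36 and 0.071. SULF2, a sulfatase that edits the chain outside the cell, was at the lower end, with 5.67, 4.90 and 5.03 CPM in siRNA-NC and 4.89, 3.44 and 3.81 CPM in si-AC010789.1; it was picked out after its values were seen. HPSE, the heparanase that cuts the chains, stood at 10.4 ± 0.122 and 10.9 ± 0.445 CPM, and NOTUM, an extracellular lipase that acts on Wnt proteins, at 21.1 ± 2.46 and 20.8 ± 2.60 CPM. ADAM10, a membrane protease, stood at 153 ± 18.5 and 154 ± 4.25 CPM, and TIMP3, a protease inhibitor held by heparan sulfate, at 145 ± 13.1 and 138 ± 13.8 CPM. All 3 tested shedding genes had log2 fold changes between -0.078 and 0.12. The 8 tested lysosomal genes lay between -0.17 and 0.16, among them HGSNAT, an acetyltransferase of heparan sulfate breakdown, at 112 ± 8.97 and 125 ± 3.51 CPM.

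The 9 tested genes of proteins that bind syndecan tails or join them to the cytoskeleton lay between -0.24 and 0.36, the upper end being SDCBP. SDCBP, which encodes syntenin, a binder of syndecan tails, and was picked out after its values were seen, stood at 116, 108 and 129.8 CPM in siRNA-NC and at 139, 170.0 and 144 CPM in si-AC010789.1 without overlap (standard error 0.10, adjusted p of 0.161 in edgeR). ACTN4, an actin crosslinker, stood at 1104 ± 15.8 and 1021 ± 19.2 CPM (-0.11, standard error 0.036) and EZR, which encodes ezrin, at 346 ± 1.42 and 330 ± 2.02 CPM (-0.071, standard error 0.035). The groups of both were separate, and neither passed the threshold. Chondroitin sulfate chains share the linker with heparan sulfate. CHSY1 and CHPF2, which extend those chains, stood at 65.7 ± 2.68 and 65.4 ± 6.86 CPM and at 100.1 ± 7.25 and 105 ± 3.23 CPM. CSGALNACT1, which starts the chondroitin chain and was picked out after its values were seen, had a log2 fold change of -0.53 and an adjusted p of 0.0501 in edgeR, at the edge of the threshold. Of the 21 pathway genes named by rule, 14 overlap a gene on the other strand, as do CSGALNACT1, SULF2, SLC35B3 and PAPSS2, so their counts are uncertain if strand was not used.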

How the data were processed

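Total RNA of 6 HCT116 samples was sequenced as paired-end TruSeq libraries. What the authors deposited are raw read counts, given as whole numbers for each Ensembl transcript in each library. Their methods name Cuffdiff, and the submitters' processing notes list CASAVA 1.8, TopHat2 2.0.6 and the builds mm10 and GRCh38 with no role. The counting program and the handling of shared reads are not given in the sources used here. The deposited table holds transcripts with at least 3 counts in all, and 98803 of its 98886 identifiers were matched to GENCODE release 29 (GRCh38). Their counts were summed per gene; transcripts annotated on X and Y were taken once. Gene sums were fitted with edgeR 4.0.16 in R 4.3.3 (TMM, filterByExpr at its defaults of 10 counts and 15 in total, quasi-likelihood test, Benjamini-Hochberg adjustment over all genes); the standard error is the log2 fold change divided by the square root of F. Members and lists were chosen with earlier results of these data known. Named were the members, the genes of each list with an adjusted p under 0.05 or among its 2 highest by mean CPM, the 5 genes most like SDC1 (log2 of CPM + 1), transcripts with at least 10% of a member's counts, and the markers; 1 gene that this rule names is not reported here. Alternatives were DESeq2 1.42.0, its size factors, upper-quartile factors, other filters, a replicate block and the fit without each library. The main edgeR fit was tested on simulated data, and the alternatives were not. Totals were 11277222 to 13443866 counts. Floors of 3 counts cover counting error only, whereas the standard errors also hold the spread between libraries. Tables and figures used Python 3.11.15, pandas 2.3.3, numpy 2.4.6 and matplotlib 3.10.9.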

Additional observations from a re-analysis of the deposited data

How the results depend on the processing

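Under the 12 alternatives the log2 fold change of SDC1 stayed between 1.29 and 1.5004. Among the members the estimate of SDC2 moved most, between -0.68 and -0.11. The sign changed for AGRN under 6 alternatives, SDC3 under 4, EXT2 under 2 and HSPG2 under 1, all with estimates near 0, and for none of the other members. SDC1 passed the threshold under 6 of the 12, and nothing is read from this because SDC1 was selected on this difference. The count of pathway genes past the threshold, 1 in the main analysis (0 higher, 1 lower), was 4 with DESeq2 (1 higher, PAPSS2, and 3 lower, UGP2, UXS1 and CSGALNACT1) and 2 with a mean of at least 1 CPM (UXS1 and CSGALNACT1, both lower, with 0 higher). Leaving out single libraries gave 0 to 1, and 0 to 1 lower. With the replicate number as a block it was 0, of which 0 higher and 0 lower, with 14 pathway genes at an unadjusted p under 0.05, and the log2 fold change of SDC1 was 1.35. The labels tie no replicate number to a shared culture or cell generation. Correlations of deviations from the group means were 0.09, 0.0027 and 7e-04 for same-numbered libraries, and -0.077 to 0.0789 for libraries of different number. The block took the genes called from 130 to 0 in edgeR, with 2162 at an unadjusted p under 0.05, against 2361 without it. A block also leaves less of the 6 libraries to estimate the spread from, and its part in this drop was not tested. Over all genes, DESeq2 called 522, the fit with no filter 69, and the fits without 1 library 12 to 37. Levels divided by the longest transcript moved by more than 1 SD, in siRNA-NC, to 88.69 TPM for SDC4, 61.74 for GPC1, 88.36 for HSPG2, 173.4 for AGRN, 16.11 for EXT1 and 29.08 for NDST1, and in si-AC010789.1 to 3.875 TPM for SDC2, 19.68 for SDC3, 84.91 for SDC4, 54.75 for GPC1, 92.09 for HSPG2 and 14.79 for EXT1. Among the pathway genes named by rule, 6 that had not passed the threshold, with estimates near 0, changed sign when a library was left out: log2 fold changes ranged from -0.06168 to 0.1278 for COL18A1, from -0.02578 to 0.002091 for TGFBR3, from -0.02131 to 0.0371 for FAM20B, from -0.1264 to 0.04669 for NOTUM, from -0.0687 to 0.1075 for ADAM10 and from -0.08612 to 0.06201 for CHSY1. NDST2, named after its values were seen, ran from -0.75 to 0.081. Upper-quartile factors gave 9.252e-07 for TGFBR3 and 0.008741 for CHSY1. The cause of these differences was not tested. Depth limits SDC2 most, at 43 to 101 counts per library.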
